A study of Mus musculus with 10 samples.

Results

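The genes that write, copy and remove DNA methylation were followed through the deletion of a member of the set, Dnmt3a, in mouse blood stem and progenitor cells. The set held 10 genes, named for their known roles: the methyltransferase genes Dnmt3a, Dnmt3b, Dnmt1 and Dnmt3l, the maintenance partners Uhrf1 and Hells, the TET genes Tet1, Tet2 and Tet3, and the glycosylase gene Tdg. All 10 were among the 38086 gene IDs that the count tables of both cell populations shared. Total RNA was sequenced from populations sorted from the bone marrow of C57BL/6 mice at 12 months of age. GMP KO (3 libraries) and LSK KO (3 libraries) came from mice with floxed Dnmt3a alleles (Dnmt3a f/f) and the Mx1-Cre transgene, and GMP CTRL (2 libraries) and LSK CTRL (2 libraries) came from Dnmt3a f/f mice that lacked Cre. The labels give 5 injections of poly(I:C), which induces Cre, for KO and CTRL samples. Mx1-Cre is driven by an interferon-responsive promoter that is active in blood-forming cells and in some other tissues, and effects of the deletion and of Cre itself cannot be told apart here. LSK cells hold the haematopoietic stem cells and multipotent progenitors, and GMP are granulocyte-macrophage progenitors, gated without Sca1 and with CD34 and FcgR.

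DNMT3A and DNMT3B add methyl groups to unmethylated CG sites, and DNMT3L, which has no catalytic activity of its own, assists them in germ cells. DNMT1, guided to newly replicated DNA by UHRF1, copies the methylation pattern to the daughter strand, and the chromatin remodeller HELLS is needed for normal methylation of heterochromatin. TET1, TET2 and TET3 oxidize methylcytosine, and TDG cuts out the most oxidized forms so that base excision repair can put back an unmodified cytosine. DNMT3A and TET2 are both frequently mutated in human clonal haematopoiesis and myeloid leukaemia.

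Gene counts summed to 93850256 to 122658636 per GMP library and 29533371 to 30437981 per LSK library. The sorted populations carried their markers: in CTRL libraries all 12 LSK markers were called higher in LSK than in GMP, beside 28.2% of all genes. Of these, Hoxb5 passed the filter on low counts through LSK alone and so had to be higher there. Of 12 GMP markers 10 were called lower in LSK, beside 27.3% of all genes, and the other 2, Kit and Cd34, were called higher. By Xist and Y-linked counts the GMP libraries were all male, whereas LSK CTRL-1326 and KO-1327 were male and the other LSK libraries female. The description of GMP KO-352 names files of the LSK experiment while its title says GMP. The title decided its group. Its gene counts summed to 99328052, within the GMP range and above all LSK libraries. CPM are reads per 1000000 reads counted on genes. The 12 GMP markers summed to 13499 to 18784 CPM in GMP KO, KO-352 included, against 4151 to 4588 CPM in LSK KO. The 12 LSK markers summed to 690 to 821 CPM in GMP KO, KO-352 included, and 2960 to 3476 CPM in LSK KO. GMP effects of the 10 members are given with and without that library, whereas those of markers and gene lists are given only with it. Between 8.5% and 16.05% of GMP reads lay outside annotated genes, 10.25% in KO-352, 15.51% in KO-178 and 16.05% in KO-179, against 8.5% in CTRL-346 and 14.17% in CTRL-350. Markers of mast cells, basophils and eosinophils had negative log2 fold changes in GMP for 10 of 10 genes, 1 of them called, beside 0.0347% of all genes. For Prss34, Cpa3, Ms4a2, Fcer1a and Gata1, CTRL-346 lay within the range of GMP KO, with CTRL-350 above it. For Hdc, Mcpt8, Prg2, Epx and Cma1 both CTRL libraries lay above GMP KO. Cma1, at 1 to 9 reads in GMP KO, passed the filter on low counts through CTRL alone. The summed level of all 10 markers was 904 to 1178 CPM in GMP KO against 1506 to 3987 CPM in GMP CTRL. In LSK 8 of the 9 tested were negative, none called, with summed levels of 129 to 166 CPM in KO and 180.7 to 193 CPM in CTRL. Mature neutrophil markers had positive log2 fold changes for 10 of 10 genes in GMP, none called, with summed levels of 593 to 4413 CPM in KO and 949 to 2263 CPM in CTRL. In LSK, B cell markers had positive log2 fold changes for 8 of 8 genes, none called, with summed levels of 70.0 to 122 CPM in KO and 59.2 to 80.1 CPM in CTRL. KO-1327 was the highest LSK library for all of them but Cd79b and Ms4a1. Vpreb1 was 6.58 CPM there but 1.33 and 1.20 CPM in KO-1333 and KO-1334, against 1.57 and 1.63 CPM in CTRL-1326 and CTRL-1330. Of all genes, 51.2% had positive log2 fold changes in GMP and 50.8% in LSK. Of 7 tested T and NK cell markers 5 had positive log2 fold changes in GMP (median 0.85). None was called by edgeR, and 1, Cd4, was called higher by DESeq2, beside 703 of 17290 genes called in either direction. In the other marker lists DESeq2 called Flt3 (log2 fold change 2.61) and Gfi1 higher and Cebpe, Hdc and Cma1 lower in GMP KO. Flt3, an LSK marker, was 71.3 to 155 CPM in GMP KO against 13.7 to 20.3 CPM in GMP CTRL. The GMP markers Cebpe and Gfi1 were 23.8 to 39.4 and 192 to 205 CPM in GMP KO. In GMP CTRL they were 61.4 to 74.2 and 141 to 150 CPM. The part of these differences in the results was not tested. The sum of the T and NK cell markers was mostly Nkg7, at 239 to 313 CPM in GMP KO against 364 to 450 CPM in GMP CTRL. Cd3e and Ncr1 were at 0 reads throughout GMP CTRL. Ncr1 thus passed the filter on low counts through GMP KO alone and had to be positive. No mast cell, basophil, eosinophil, neutrophil or B cell marker was at 0 reads throughout a group, and the part of these cells in the results was not tested.

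Dnmt3a (ENSMUSG00000020661, chromosome 12, 3806007 to 3914443 on the GRCm38 build) was the deleted gene. It was measured at 63.95, 57.83 and 65.49 CPM in LSK KO-1327, KO-1333 and KO-1334, against 168.9 and 167.7 CPM in LSK CTRL-1326 and CTRL-1330. The 3 LSK KO libraries lay close together and far below CTRL, at 38.0%, 34.4% and 38.9% of the CTRL mean. The log2 fold change in LSK was −1.43 ± 0.08 (SE, edgeR adjusted p = 1.06e-04). In a single fit of all 10 libraries, where both populations share an estimate of the spread, the LSK value was −1.44 ± 0.35 and was not called (edgeR adjusted p = 1). The levels were 44.69, 57.41 and 17.74 CPM in GMP KO-178, KO-179 and KO-352, against 126.9 and 98.99 CPM in CTRL-346 and CTRL-350. All 3 GMP KO libraries were below both CTRL libraries but far apart from each other, at 39.6%, 50.8% and 15.7% of the CTRL mean. The GMP log2 fold change was −1.50 ± 0.42 with a 95% interval of −2.51 to −0.49, which missed the threshold (edgeR adjusted p = 0.300). Without KO-352 it was −1.14 ± 0.18 and passed (edgeR adjusted p = 0.0493). A count over the whole gene includes exons outside the floxed part and transcripts that lack it. In these sorted samples a smaller number of cells that transcribe Dnmt3a and less of its RNA per cell cannot be told apart.

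**Figure D1:**
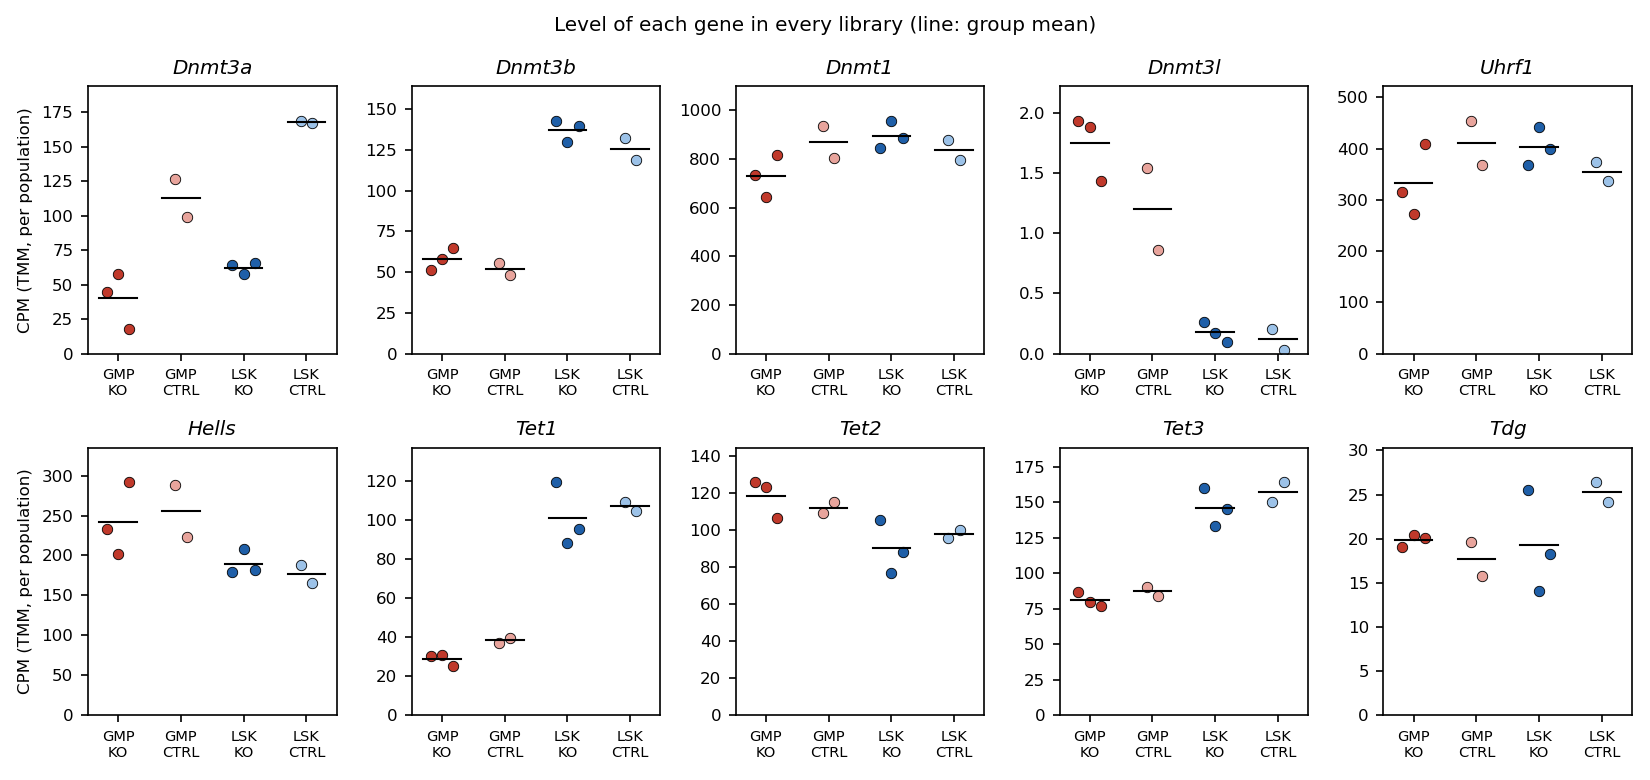
Level of each of the 10 genes in every library, in reads per 1000000 (CPM, library sizes adjusted by TMM within each population) on the vertical axis, with KO left of CTRL in each population and a line at each group mean. Dnmt3a was lower in all KO libraries of both populations, Tet1 was lower in GMP KO at 25.3 to 30.5 CPM than in GMP CTRL at 36.9 to 39.6 CPM, and the points of the remaining genes overlapped between KO and CTRL within a population.

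Dnmt3b (ENSMUSG00000027478, chromosome 2, 153649450 to 153687730) encodes the other catalytic de novo enzyme, and its level overlapped between genotypes. It was measured at 142.8, 130.1 and 139.6 CPM in LSK KO-1327, KO-1333 and KO-1334, against 132.3 and 118.6 CPM in LSK CTRL-1326 and CTRL-1330. It was 51.52, 58.03 and 64.88 CPM in GMP KO-178, KO-179 and KO-352, against 55.76 and 48.25 CPM in CTRL-346 and CTRL-350. In both populations the highest value was a KO library and the lowest a CTRL library, with overlap between them. The log2 fold change was 0.13 ± 0.08 in LSK (95% interval −0.05 to 0.31, edgeR adjusted p = 0.9998) and 0.16 ± 0.13 in GMP (95% interval −0.16 to 0.48, edgeR adjusted p = 0.599). On the linear scale these intervals reach from 0.966-fold to 1.24-fold in LSK and from 0.897-fold to 1.39-fold in GMP, so a rise of Dnmt3b RNA beyond those upper bounds was outside the 95% interval. Without KO-352 the GMP log2 fold change was 0.08 ± 0.13.

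With Dnmt3a lower and Dnmt3b not called, Dnmt3b made up a larger part of the de novo methyltransferase RNA in KO libraries. In RPKM (CPM per kilobase of the union of annotated exons), Dnmt3b accounted for 87.8% ± 0.314 of Dnmt3a and Dnmt3b together in LSK KO (SD, n = 3) and 70.8% ± 1.48 in LSK CTRL (SD, n = 2). The share was 79.0%, 76.7% and 92.3% in GMP KO-178, KO-179 and KO-352, against 58.9% and 61.4% in CTRL-346 and CTRL-350. The ranges of KO and CTRL did not overlap in either population. The lower level of Dnmt3a enters this share directly, so it is a description and was not tested. The sum of both genes was 31.8, 29.0 and 31.3 RPKM in LSK KO-1327, KO-1333 and KO-1334, against 36.1 and 33.3 RPKM in LSK CTRL-1326 and CTRL-1330. The sum was 12.8, 14.8 and 13.8 RPKM in GMP KO-178, KO-179 and KO-352, against 18.5 and 15.4 RPKM in CTRL-346 and CTRL-350. Because Dnmt3b was the more abundant of the pair in every library on this length, the summed level differed between genotypes by less than that of Dnmt3a itself. The shares depend on the length taken for each gene: on the longest transcript Dnmt3b made up 83.2% in LSK KO and 62.5% in LSK CTRL, and 76.9% in GMP KO and 50.9% in GMP CTRL.

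**Figure D2:**
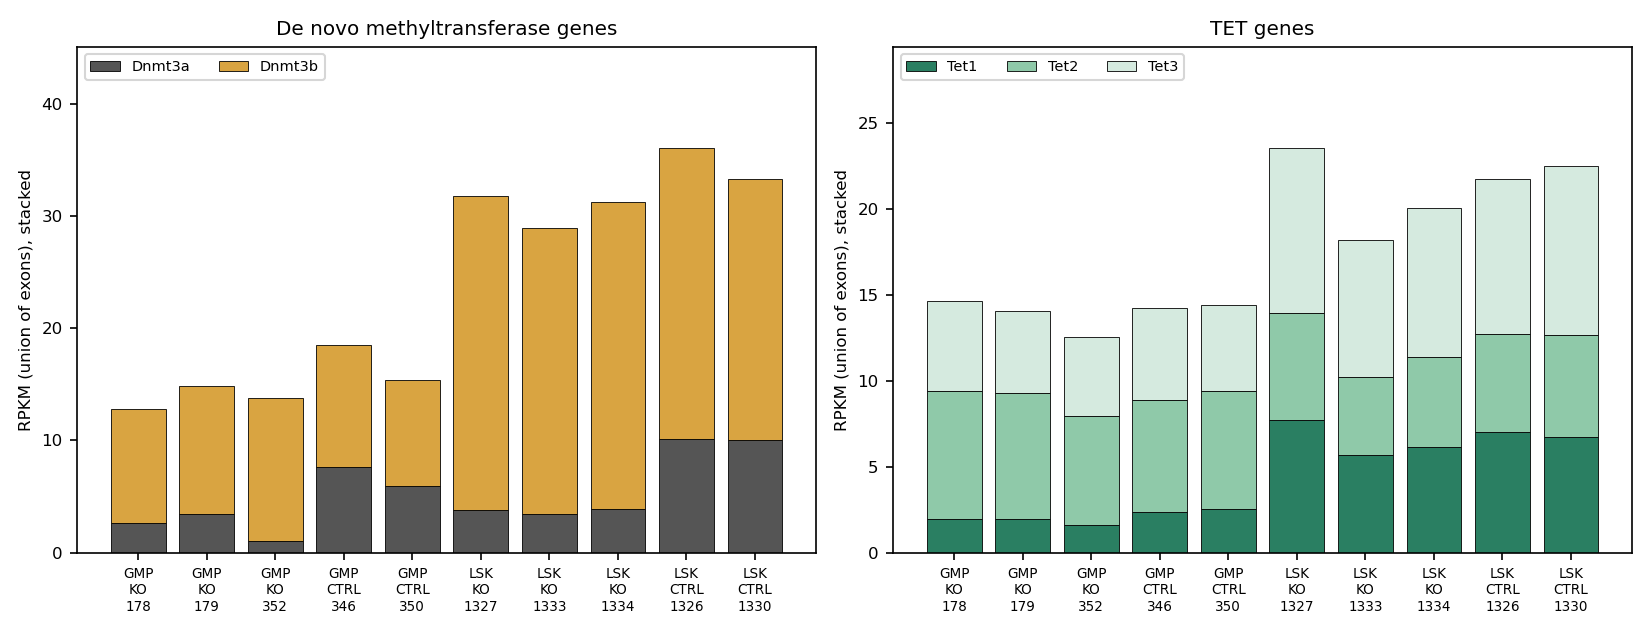
Stacked RPKM of the de novo methyltransferase genes Dnmt3a and Dnmt3b (left) and of Tet1, Tet2 and Tet3 (right), with 1 bar per library and KO left of CTRL in each population. In the left panel the Dnmt3a part is smaller in every KO library while Dnmt3b fills most of each bar; in the right panel Tet2 is the largest part in GMP libraries and Tet3 in LSK libraries.

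Dnmt3l (ENSMUSG00000000730, chromosome 10, 78041947 to 78063622) was close to absent. It had 8, 5 and 3 reads in LSK KO-1327, KO-1333 and KO-1334, against 6 and 1 reads in CTRL-1326 and CTRL-1330, too few to be tested. It was 1.93, 1.88 and 1.44 CPM in GMP KO-178, KO-179 and KO-352, against 1.54 and 0.857 CPM in CTRL-346 and CTRL-350. The GMP groups overlapped, with a log2 fold change of 0.54 ± 0.36 (edgeR adjusted p = 0.518). Its annotated neighbour Aire, on the opposite strand and overlapping Dnmt3l, had 20 to 82 reads in LSK libraries and 0 to 2 in GMP libraries, and whether reads were counted by strand is unknown here.

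The maintenance genes Dnmt1 (ENSMUSG00000004099, chromosome 9, 20907209 to 20959888), Uhrf1 (ENSMUSG00000001228, chromosome 17, 56303321 to 56323486) and Hells (ENSMUSG00000025001, chromosome 19, 38930915 to 38971051) were the members with the highest RPKM in GMP, and together with Dnmt3b in LSK. They are shown here with a promoter window because their levels went up and down together across libraries. RefSeq windows of 300 bases (250 before to 50 after each start, GRCm38.p6) were matched for 10 of 10 genes, 17 windows in all. They were searched on both strands for the letters TTTCCCGC, TTTGGCGC, TTTCGCGC and TTTGCCGC, which are typical of E2F sites, the sequence class read by the E2F factors at cell cycle genes. A match was found in 3 of the 17 windows, 1 each of Dnmt1, Uhrf1 and Hells, and in 744 of all 32851 windows of this length (2.26%). The matching windows are printed 5′ to 3′ on the gene's strand, with the matched letters in capitals. They lie at chr9:20952574-20952873 on the minus strand, chr17:56304063-56304362 on the plus strand and chr19:38930740-38931039 on the plus strand.
Dnmt1: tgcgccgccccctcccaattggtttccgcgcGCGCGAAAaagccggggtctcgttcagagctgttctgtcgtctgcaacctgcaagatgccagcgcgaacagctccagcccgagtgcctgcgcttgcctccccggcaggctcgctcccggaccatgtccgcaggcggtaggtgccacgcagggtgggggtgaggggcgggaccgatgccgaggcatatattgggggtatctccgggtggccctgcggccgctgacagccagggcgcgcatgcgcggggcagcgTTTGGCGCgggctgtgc
Uhrf1: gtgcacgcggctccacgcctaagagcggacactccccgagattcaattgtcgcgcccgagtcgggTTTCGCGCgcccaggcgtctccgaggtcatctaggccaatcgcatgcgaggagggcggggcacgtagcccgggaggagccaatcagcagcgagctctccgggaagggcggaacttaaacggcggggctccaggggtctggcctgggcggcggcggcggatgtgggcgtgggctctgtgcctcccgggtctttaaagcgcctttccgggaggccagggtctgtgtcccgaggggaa
Hells: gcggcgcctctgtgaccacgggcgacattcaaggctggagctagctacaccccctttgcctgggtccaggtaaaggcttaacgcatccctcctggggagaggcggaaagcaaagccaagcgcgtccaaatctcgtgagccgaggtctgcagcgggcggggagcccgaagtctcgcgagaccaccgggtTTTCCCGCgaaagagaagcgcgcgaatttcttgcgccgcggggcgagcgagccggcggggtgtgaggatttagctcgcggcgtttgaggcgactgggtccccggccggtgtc
These windows held 33, 33 and 34 CG dinucleotides, against a median of 7.0 over all windows. The match is a description of letters and not of binding, and the other Dnmt1 and Uhrf1 windows held none of these letters. On the gene's strand, the matching Dnmt1 and Uhrf1 windows lie inside the annotated gene, downstream of its other windows.

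Dnmt1 was measured at 735, 643 and 816 CPM in GMP KO-178, KO-179 and KO-352, against 935 and 805 CPM in GMP CTRL-346 and CTRL-350. It was 847, 957 and 887 CPM in LSK KO-1327, KO-1333 and KO-1334, against 878 and 797 CPM in CTRL-1326 and CTRL-1330. KO and CTRL overlapped in both populations. The log2 fold change was −0.25 ± 0.14 in GMP (95% interval −0.58 to 0.08, edgeR adjusted p = 0.443) and 0.10 ± 0.11 in LSK (95% interval −0.14 to 0.34, edgeR adjusted p = 0.9998).

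Uhrf1 followed the same order of libraries. It was 315.5, 272.8 and 408.6 CPM in GMP KO-178, KO-179 and KO-352, against 454.2 and 368.8 CPM in CTRL-346 and CTRL-350. It was 367.2, 443.2 and 398.6 CPM in LSK KO-1327, KO-1333 and KO-1334, against 373.2 and 336.2 CPM in CTRL-1326 and CTRL-1330. KO-178 and KO-179 lay below both GMP CTRL libraries and KO-352 between them. The log2 fold change was −0.31 ± 0.19 in GMP (95% interval −0.76 to 0.14, edgeR adjusted p = 0.482) and 0.18 ± 0.10 in LSK (95% interval −0.05 to 0.42, edgeR adjusted p = 0.9998). Without KO-352 the GMP value was −0.48 ± 0.15 for Uhrf1 (edgeR adjusted p = 0.127) and −0.34 ± 0.15 for Dnmt1 (edgeR adjusted p = 0.219). With KO-352 as the sole KO library it was 0.00 for Uhrf1 and −0.08 for Dnmt1.

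Hells was 232.7, 202.2 and 291.6 CPM in GMP KO-178, KO-179 and KO-352, against 287.7 and 222.7 CPM in GMP CTRL-346 and CTRL-350. It was 179.1, 208.2 and 181.8 CPM in LSK KO-1327, KO-1333 and KO-1334, against 187.7 and 165.6 CPM in CTRL-1326 and CTRL-1330. The groups overlapped, with log2 fold changes of −0.08 ± 0.19 in GMP (edgeR adjusted p = 0.878) and 0.10 ± 0.09 in LSK (edgeR adjusted p = 0.9998). In GMP the sign for Hells turned to 0.11 when reads outside genes entered as a term and to 0.20 with KO-352 as the sole KO library.

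The mean of a list of 26 proliferation genes moved through the libraries alongside these 3 genes, but its genes differed from each other. Among GMP KO libraries Mcm2 and Mcm5 were lowest in KO-179, whereas Mki67 and Ccnb1 were highest there. On the log2(CPM + 1) scale, relative to the CTRL mean of the population, the mean of Dnmt1, Uhrf1 and Hells was −0.24, −0.45 and 0.04 in GMP KO-178, KO-179 and KO-352, against 0.15 and −0.15 in GMP CTRL-346 and CTRL-350. The mean of the proliferation genes was −0.15, −0.22 and −0.07 in those GMP KO libraries and 0.07 and −0.07 in those GMP CTRL libraries. The library with the lowest level, KO-179, and that with the highest, CTRL-346, were the same for both means. The 3 genes stood at 0.03, 0.25 and 0.10 in LSK KO-1327, KO-1333 and KO-1334, against 0.08 and −0.08 in CTRL-1326 and CTRL-1330. The proliferation genes stood at 0.00, 0.21 and 0.08 in those LSK KO libraries and at 0.06 and −0.06 in those LSK CTRL libraries, with all 5 libraries in the same order as for the 3 genes. Of the 26 genes, 6 had positive log2 fold changes in GMP (median −0.18), beside 51.2% of all genes, and 24 in LSK (median 0.09), beside 50.8%. By edgeR 0 passed in either population. At an unadjusted p under 0.05 there were 4 of the 26 in GMP, beside 13.8% of all genes, and 1 in LSK, beside 2.83%. DESeq2 called 1 in GMP, the mitotic kinase gene Plk1 at −0.45, beside 703 of all 17290 genes, and 0 in LSK, and limma-voom called 0. Their summed level was 7705 to 7985 CPM in GMP KO and 8531 to 9316 CPM in GMP CTRL, and 7089 to 7752 CPM in LSK KO and 6639.7 to 7349 CPM in LSK CTRL. The part of proliferation in the levels of Dnmt1, Uhrf1 and Hells was not tested.

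**Figure D3:**
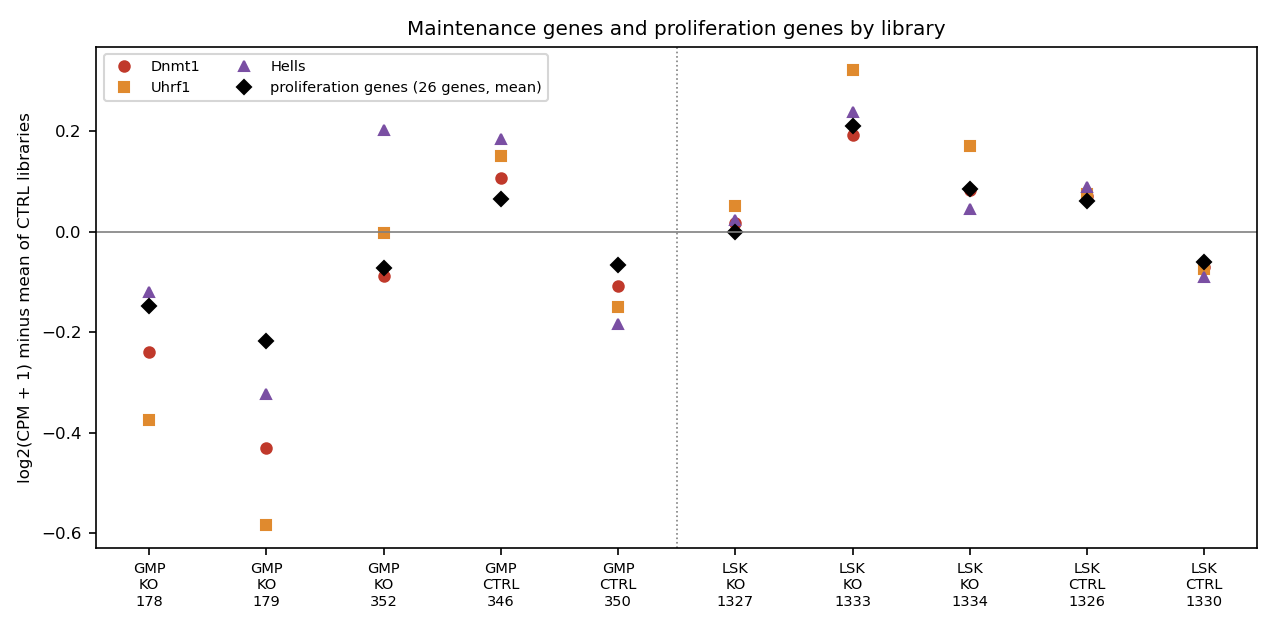
Dnmt1, Uhrf1, Hells and the mean of 26 proliferation genes in each library, as log2(CPM + 1) minus the mean of the CTRL libraries of the same population, with KO left of CTRL. The symbols shift together from library to library, lowest in GMP KO-179 and highest in LSK KO-1333, and the libraries within the KO groups differ from each other by as much as KO differs from CTRL.

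Among the genes of active demethylation, Tet1 (ENSMUSG00000047146, chromosome 10, 62804570 to 62908996) was the member other than Dnmt3a with the smallest p in GMP. It was measured at 30.44, 30.48 and 25.35 CPM in GMP KO-178, KO-179 and KO-352, against 36.95 and 39.64 CPM in GMP CTRL-346 and CTRL-350. All 3 KO libraries lay below both CTRL libraries. The log2 fold change was −0.41 ± 0.13 (95% interval −0.72 to −0.11), which missed the threshold (edgeR adjusted p = 0.311), and it ranged from −0.59 to −0.33 over 13 alternative fits with adjusted p between 0.0669 and 0.9999. Without KO-352 it was −0.33 ± 0.12 (edgeR adjusted p = 0.156). The share of genes whose GMP KO libraries all lay below CTRL was 15.1%, so this pattern was common in GMP. Tet1 was 119.1, 87.8 and 95.2 CPM in LSK KO-1327, KO-1333 and KO-1334, against 109.1 and 104.5 CPM in CTRL-1326 and CTRL-1330. These LSK groups overlapped, with a log2 fold change of −0.08 ± 0.12 (edgeR adjusted p = 0.9998) that turned to 0.0097 without KO-1333. The summed level of the markers of mast cells, basophils and eosinophils was lower in the same GMP KO libraries, by the values given above.

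Tet2 (ENSMUSG00000040943, chromosome 3, 133463679 to 133545139) was 125.9, 123.6 and 106.5 CPM in GMP KO-178, KO-179 and KO-352, against 109.2 and 115.3 CPM in GMP CTRL-346 and CTRL-350. It was 105.5, 76.9 and 88.2 CPM in LSK KO-1327, KO-1333 and KO-1334, against 96.0 and 99.9 CPM in CTRL-1326 and CTRL-1330. Tet2 overlapped between genotypes in both populations, with log2 fold changes of 0.08 ± 0.12 in GMP (95% interval −0.20 to 0.36, edgeR adjusted p = 0.778) and −0.12 ± 0.12 in LSK (95% interval −0.39 to 0.15, edgeR adjusted p = 0.9998). Tet3 (ENSMUSG00000034832, chromosome 6, 83362373 to 83459084) averaged 81.3 ± 5.13 CPM in GMP KO and 87.2 ± 4.39 CPM in GMP CTRL, and 146 ± 13.5 CPM in LSK KO and 157 ± 9.77 CPM in LSK CTRL (SD, n = 3 for KO and 2 for CTRL). Its log2 fold change was −0.10 ± 0.11 in GMP (edgeR adjusted p = 0.682) and −0.10 ± 0.09 in LSK (edgeR adjusted p = 0.9998). On the opposite strand to Tet3 lies B230319C09Rik, with 315 to 895 reads in GMP libraries and 187 to 299 in LSK libraries, and reads of the pair may not be separated.

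Per length, the makeup of the TET RNA was near the same in both genotypes of LSK. Tet2 made up 25.9% ± 0.775 in LSK KO and 26.2% ± 0.104 in LSK CTRL, Tet3 42.6% ± 1.65 and 42.5% ± 1.60, and Tet1 31.5% ± 1.07 and 31.2% ± 1.71 (SD, n = 3 for KO and 2 for CTRL). In GMP Tet1 made up 13.5% ± 0.468 in KO and 17.3% ± 0.719 in CTRL, and Tet2 51.1% ± 0.866 in KO and 46.3% ± 1.41 in CTRL. The GMP ranges of KO and CTRL did not overlap for Tet1 or Tet2, whereas Tet3 overlapped at 35.4% ± 1.33 in KO and 36.4% ± 2.13 in CTRL. These shares carry the same Tet1 difference as above and were not tested. The 3 genes together gave 14.6, 14.1 and 12.6 RPKM in GMP KO-178, KO-179 and KO-352, against 14.3 and 14.4 RPKM in GMP CTRL-346 and CTRL-350.

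Tdg (ENSMUSG00000034674, chromosome 10, 82629828 to 82650799) showed the widest spread of the tested members in LSK KO, relative to its mean. It was 25.54, 14.05 and 18.24 CPM in LSK KO-1327, KO-1333 and KO-1334, against 26.38 and 24.16 CPM in LSK CTRL-1326 and CTRL-1330. KO-1327 lay between the CTRL libraries and the other KO libraries below both. The log2 fold change was −0.39 ± 0.21 (95% interval −0.87 to 0.09, edgeR adjusted p = 0.9998). KO-1327 is male and KO-1333 and KO-1334 are female: in the libraries without Y-linked counts, where CTRL-1330 is the single CTRL library and is assumed to vary like KO, the value was −0.58 ± 0.18 (edgeR adjusted p = 0.197), and with sex as a term it was −0.35 ± 0.16 (edgeR adjusted p = 0.9998). Tdg was 19.10, 20.45 and 20.10 CPM in GMP KO-178, KO-179 and KO-352, against 19.61 and 15.80 CPM in CTRL-346 and CTRL-350, a log2 fold change of 0.17 ± 0.15 (edgeR adjusted p = 0.620). Tdg-ps, a processed pseudogene, had 6 to 19 reads in GMP libraries and 0 to 5 in LSK libraries.

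Over the whole set, the edgeR test called Dnmt3a in LSK and no other member in either population. In LSK 1 of the 9 members tested was called, beside 0.0232% of all 17238 genes tested. In GMP 0 of 10 were called, beside 0.0347% of 17290 genes. At an unadjusted p under 0.05 the GMP members were 2, Dnmt3a and Tet1, beside 13.8% of all genes, and in LSK it was Dnmt3a alone, beside 2.83%. DESeq2 called 0 members in GMP, beside 703 of all genes, and 1, Dnmt3a, in LSK, beside 19. For limma-voom it was 0 members in GMP, beside 0 of all genes, and Dnmt3a in LSK, beside 4. Groups that did not overlap were found for 2 of 10 members in GMP, Dnmt3a and Tet1, beside 31.6% of all genes, and for Dnmt3a in LSK, beside 14.8%. The 9 members other than Dnmt3a had GMP log2 fold changes of −0.41 to 0.54 with a median of −0.08, and the 8 tested in LSK had −0.39 to 0.18 with a median of 0.01. Without KO-352 the GMP log2 fold changes of Dnmt3l, Hells, Tet2, Tet3 and Tdg were 0.67, −0.23, 0.15, −0.06 and 0.16, none of them called. The median over all genes tested was 0.01 in GMP and 0.00 in LSK. The 95% intervals of the 8 in LSK lay between 0.548-fold and 1.34-fold, and those of the 9 in GMP between 0.592-fold and 2.66-fold. These are the outermost bounds over the genes: the highest in GMP was that of Dnmt3l, and the interval of Tet1 in GMP (0.608-fold to 0.927-fold) did not reach 1.

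**Figure D4:**
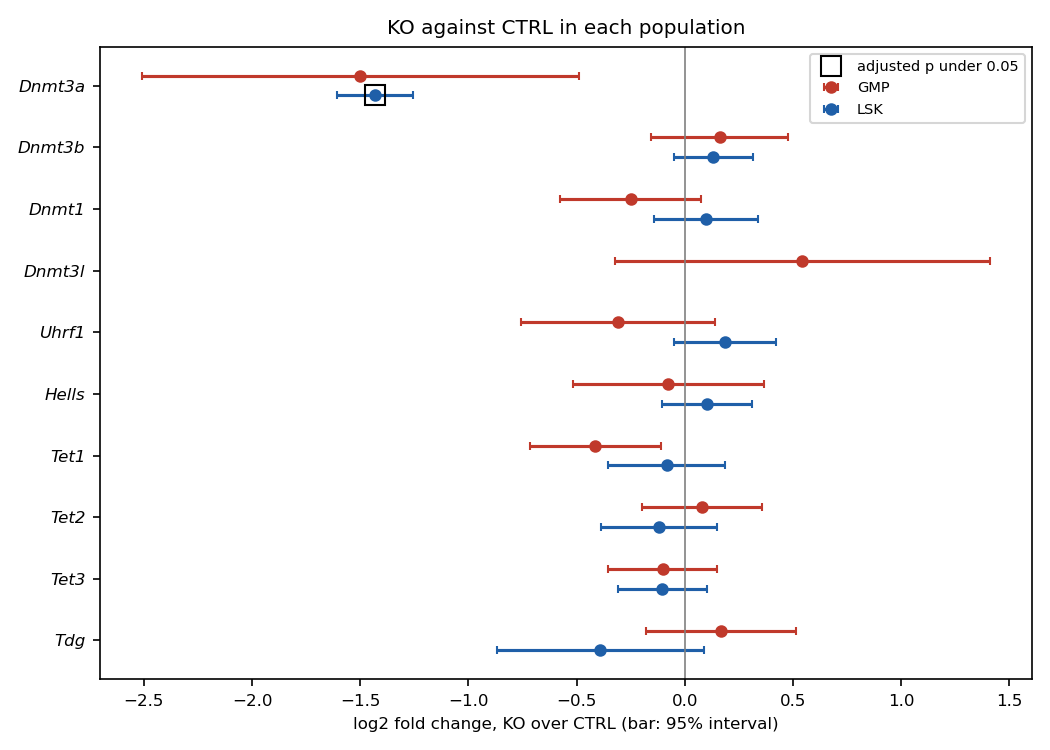
Log2 fold change of KO over CTRL for each of the 10 genes in GMP and LSK, with 95% intervals from the edgeR fit and a square around values with an adjusted p under 0.05. Dnmt3a lies near −1.5 in both populations with a wider interval in GMP; the intervals of the other genes include 0 except that of Tet1 in GMP, and Dnmt3l was not tested in LSK.

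A single fit of all 10 libraries compared the genotype effects of the populations. The difference of effects, LSK minus GMP, was 0.05 ± 0.50 for Dnmt3a, with a 95% interval of −1.05 to 1.14. For Uhrf1 it was 0.47 ± 0.23 and for Dnmt1 0.33 ± 0.17, with a negative effect in GMP and a positive one in LSK for both. For Tdg it was −0.58 ± 0.29, with the signs the other way round. By edgeR 0 of 10 members passed for this difference, beside 0.0265% of 18836 genes, and the smallest adjusted p was 0.518 (Tdg). At an unadjusted p under 0.05 there were also 0, beside 10.1% of genes. DESeq2 and limma-voom called 0 members, beside 214 and 2 of all genes. The mean of the effects was −1.46 ± 0.24 for Dnmt3a (edgeR adjusted p = 0.0848) and −0.25 ± 0.10 for Tet1 (edgeR adjusted p = 0.388). For the mean 0 of 10 members were called by edgeR, beside 0.0372% of genes, 2 had an unadjusted p under 0.05 (Dnmt3a and Tet1), and limma-voom called 0. DESeq2 called Dnmt3a for the mean effect (DESeq2 adjusted p = 5.35e-04), beside 275 of all 18836 genes. So did edgeR without KO-352 (edgeR adjusted p = 9.47e-04), beside 473 of 16760 genes.

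LSK and GMP were compared within each genotype. In this comparison population, count table, any difference in annotation and depth coincide and cannot be told apart, and CPM are from the joint scaling of all 10 libraries. Sex differed as well, since all GMP libraries were male and the LSK libraries were of both sexes. In KO, 6 of 10 members were called, 3 higher and 3 lower in LSK, beside 60.9% of all genes (30.7% higher and 30.1% lower). In CTRL, 8 of 10 were called, 3 higher and 5 lower, beside 55.4% (28.2% higher and 27.3% lower). The members' share in KO is close to that over all genes, and the lower calls include Dnmt3l in both genotypes, which passed the filter on low counts through GMP alone and so had to differ. The median log2 fold change of all genes was 0.08 in KO and 0.12 in CTRL, and 0.46 in KO and 0.53 in CTRL when library totals replaced TMM.

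Tet1, Dnmt3b and Tet3 were higher in LSK. Tet1 averaged 88.1 ± 13.5 CPM in LSK KO and 33.2 ± 3.38 CPM in GMP KO (SD, n = 3 each), a log2 fold change of 1.41 ± 0.12 (edgeR adjusted p = 4.83e-06). In CTRL it averaged 94.0 ± 4.82 CPM in LSK and 43.8 ± 2.95 CPM in GMP (SD, n = 2 each), a log2 fold change of 1.10 ± 0.15 (edgeR adjusted p = 1.54e-04). Dnmt3b averaged 120.3 ± 4.51 CPM in LSK KO and 67.0 ± 7.63 CPM in GMP KO, a log2 fold change of 0.84 ± 0.10 (edgeR adjusted p = 5.42e-05), and in CTRL it was 0.90 ± 0.13 (edgeR adjusted p = 2.09e-04). Tet3 had log2 fold changes of 0.45 ± 0.09 in KO (edgeR adjusted p = 0.00124) and 0.47 ± 0.11 in CTRL (edgeR adjusted p = 0.00379). These 3 genes stayed called in both genotypes with library totals in place of TMM.

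Hells, Tet2 and Dnmt3l were lower in LSK. Hells averaged 166 ± 15.9 CPM in LSK KO and 279 ± 53.0 CPM in GMP KO, a log2 fold change of −0.75 ± 0.15 (edgeR adjusted p = 0.00119), and in CTRL it was −0.91 ± 0.18 (edgeR adjusted p = 0.00164). Tet2 had −0.79 ± 0.11 in KO (edgeR adjusted p = 1.60e-04) and −0.58 ± 0.14 in CTRL (edgeR adjusted p = 0.00550), and its call in CTRL was lost with library totals at −0.16. Dnmt3l had −3.69 ± 0.53 in KO and −3.68 ± 0.68 in CTRL.

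Dnmt1 and Uhrf1 were not called in KO, at −0.10 ± 0.11 for Dnmt1 (edgeR adjusted p = 0.415) and −0.12 ± 0.15 for Uhrf1 (edgeR adjusted p = 0.504). In CTRL they were called lower in LSK, at −0.43 ± 0.13 for Dnmt1 (edgeR adjusted p = 0.0165) and −0.59 ± 0.18 for Uhrf1 (edgeR adjusted p = 0.0183). Without CTRL-346 or without CTRL-1330 both lost these calls, at −0.31 and −0.34 for Dnmt1 and −0.43 and −0.50 for Uhrf1. With library totals Dnmt1 was 0.28 in KO, called higher in LSK (edgeR adjusted p = 0.0121), and −0.01 in CTRL, and Uhrf1 0.27 in KO and −0.17 in CTRL, so the calls in CTRL and the direction in KO rest on the scaling. On the TMM scaling 22 of the 26 proliferation genes were called lower in LSK and 1 higher in KO (median −0.55), beside 30.1% and 30.7% of all genes. In CTRL 23 were called lower (median −0.81), beside 27.3% of all genes. Dnmt3a itself had log2 fold changes of 0.25 ± 0.31 in KO and 0.20 ± 0.38 in CTRL, and Tdg of −0.44 ± 0.18 in KO (edgeR adjusted p = 0.0539) and 0.14 ± 0.22 in CTRL (edgeR adjusted p = 0.613). The Tdg difference in KO was called with every library kept by DESeq2 (DESeq2 adjusted p = 0.0491), by limma-voom (limma-voom adjusted p = 0.0319) and by edgeR with no filter (edgeR adjusted p = 0.0354), and without KO-1327 (edgeR adjusted p = 0.00364). Without KO-1327 the LSK KO libraries were all female and the GMP KO libraries all male, so sex and population coincide there. With library totals it was −0.06 (edgeR adjusted p = 0.781).

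**Figure D5:**
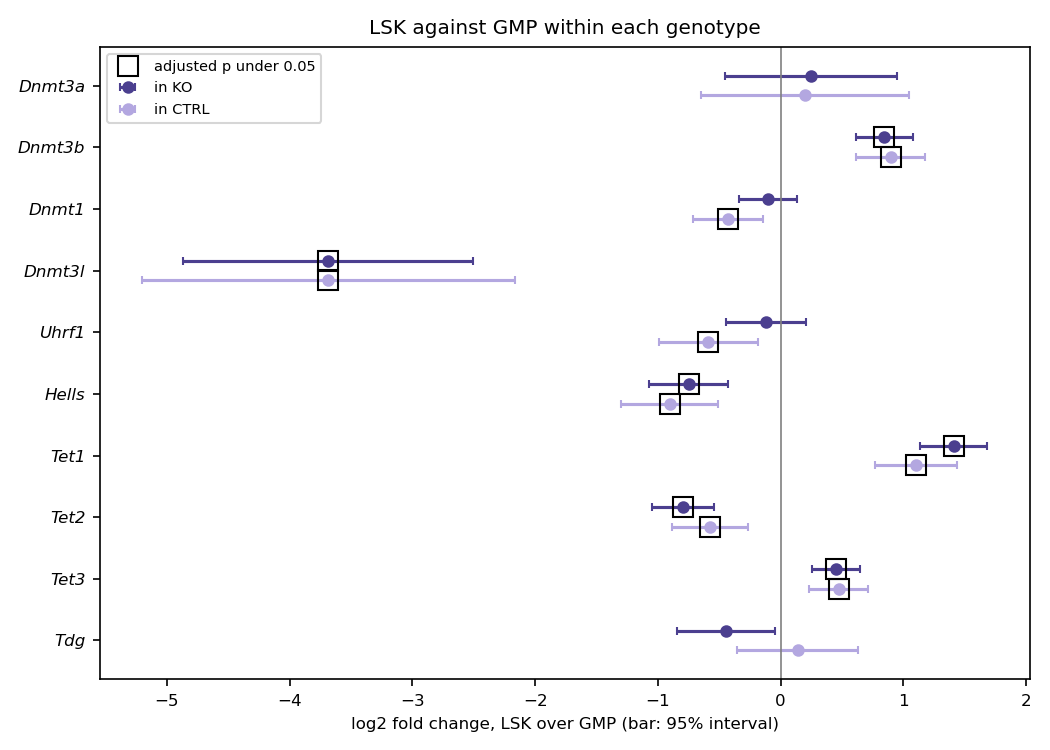
Log2 fold change of LSK over GMP for each gene within KO and within CTRL, with 95% intervals from the fit of all 10 libraries and a square around values with an adjusted p under 0.05. Dnmt3b, Tet1 and Tet3 lie right of 0 and Dnmt3l, Hells and Tet2 left of it in both genotypes, while Dnmt1 and Uhrf1 carry a square in CTRL but not in KO.

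Ranked by mean RPKM, Dnmt1 and Uhrf1 led in every group and Dnmt3l came last. Dnmt1 reached 121.6 RPKM in LSK KO, 113.6 in LSK CTRL, 99.2 in GMP KO and 118 in GMP CTRL, and Uhrf1 94.6, 83.3, 78.0 and 96.6 RPKM in those groups. Their ranges overlapped in GMP KO and were apart in the other groups. Hells and Dnmt3b took ranks 3 and 4 (Dnmt3b rank 5, after Tet2, by the longest transcript in GMP CTRL), with overlapping ranges in LSK KO and LSK CTRL and with Hells above Dnmt3b in GMP. Dnmt3a ranked 8 in LSK KO and GMP KO, at 3.75 and 2.40 RPKM, and 5 in LSK CTRL and GMP CTRL, at 10.1 and 6.79 RPKM. In GMP CTRL its range overlapped that of Tet2, and by the longest transcript it ranked 6 there. Its range overlapped that of Tdg in LSK KO and that of Tet1 in GMP KO.

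The other genes of the pathway were read in 6 lists. With every library kept, 0 genes in each list passed the edgeR test in either population. At an unadjusted p under 0.05 there were 1 reader, 3 repair genes and 4 TET cofactors in GMP, of 11, 12 and 11 tested, beside 13.8% of all genes, and 1 of 11 TET cofactors, Ebf1, in LSK, beside 2.83%. Ebf1 was also tested in GMP, where it passed the filter on low counts through CTRL alone and so had to be lower in KO. DESeq2 called 1 gene of the 6 lists in GMP, Idh1, beside 703 of all 17290 genes, and 0 in LSK. With limma-voom 0 were called in both. The 11 methyl-CpG readers had median log2 fold changes of 0.15 in GMP and −0.03 in LSK, and 1 of them, Mbd1, had an unadjusted p under 0.05 in GMP at −0.26 ± 0.10 (edgeR adjusted p = 0.349). Mbd3, a subunit of the NuRD complex, stood at −0.44 ± 0.22 and Mbd2, which binds methylated DNA in that complex, at 0.22 ± 0.13 in GMP. The 9 partners of maintenance methylation had medians of −0.10 in GMP and 0.04 in LSK. Ehmt2, a histone H3 lysine methyltransferase, stood at −0.44 ± 0.20 in GMP, with Pcna, the replication clamp that binds DNMT1, at −0.19 ± 0.13 and Usp7, a deubiquitinase that binds DNMT1 and UHRF1, at 0.19 ± 0.12. The 13 tested partners of de novo methylation and silencing had medians of −0.03 in GMP and 0.03 in LSK, with Trim28, a corepressor of retroelements, at −0.39 ± 0.20 and Setd2, which writes the H3K36 mark read by DNMT3 enzymes, at 0.24 ± 0.15 in GMP.

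The lists of base excision repair and of TET cofactors and regulators had the lowest medians of the 6 lists in GMP. The 12 tested genes of base excision repair had a median of −0.26 in GMP, with 9 negative and 3 at an unadjusted p under 0.05, and the 13 tested in LSK had −0.01. Those 3 were Gadd45b at −0.66 ± 0.27, Xrcc1, the scaffold of single-strand break repair, at −0.53 ± 0.22 and Polb, the gap-filling polymerase, at −0.37 ± 0.16 (edgeR adjusted p = 0.353, 0.353 and 0.361). The 11 tested TET cofactors and regulators had a median of −0.27 in GMP, with 8 negative, Ebf1 among them, and 0.06 in LSK. Idh1, which makes the 2-oxoglutarate that TET enzymes use, was 165 to 204 CPM in GMP KO against 253 to 280.4 CPM in GMP CTRL, a log2 fold change of −0.54 ± 0.13 by edgeR (edgeR adjusted p = 0.264) and −0.55 by DESeq2, which called it. Cxxc1, a reader of unmethylated CG sites, stood at −0.53 ± 0.19 (edgeR adjusted p = 0.329) and Dcaf1 at −0.31 ± 0.13 (edgeR adjusted p = 0.355). Ebf1, also a B cell marker, was 0.00 to 0.06 CPM in GMP KO and 0.14 to 0.19 CPM in GMP CTRL, and in LSK, where all 8 B cell markers were positive, it was 5.30 to 14.75 CPM in KO and 3.53 to 6.17 CPM in CTRL. The 13 genes of methyl donor metabolism had medians of 0.09 in both populations, with Mat2a, which makes S-adenosylmethionine, at 0.22 ± 0.10 in GMP (edgeR adjusted p = 0.392).

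The genes most like 3 of the members were sought over the 10 libraries, each centred on its population, among 10874 genes with at least 1 CPM on average in both populations, by Pearson r of log2(CPM + 1) as a measure of likeness with no test. Libraries of a genotype share their difference from the other genotype, which enters r. For Dnmt3a the 3 most alike were Cdkn2c (r = 0.944), Stap1 (r = 0.928) and Hsd11b1 (r = 0.922). Cdkn2c, which encodes an inhibitor of the cell cycle kinases CDK4 and CDK6, was 7.92 to 16.6 CPM in GMP KO against 34.8 to 42.8 CPM in GMP CTRL, and 24.1 to 26.9 CPM in LSK KO against 40.5 to 46.5 CPM in LSK CTRL. For Uhrf1 they were Smco4 (r = 0.992), Chaf1a (r = 0.990), a subunit of the histone chaperone that acts at replication forks, and Nmt1 (r = 0.989). For Dnmt3b they were Slc16a3 (r = 0.930), Kif3a (r = 0.919) and Med4 (r = 0.913).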

How the data were processed

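Total RNA libraries, made with a stranded kit after removal of ribosomal RNA per the labels' protocols, were grouped by the genotype and cell type in their titles: 3 GMP KO, 2 GMP CTRL, 3 LSK KO and 2 LSK CTRL. The authors deposited raw counts of reads per Ensembl gene, separately for GMP and LSK, and a normalized signal per gene. The submitters' processing notes list DESeq2 1.4.5, DESeq 1.18.0, HTSeq 0.5.3p3, STAR and the build mm10 (GRCm38) without roles. Strand setting and annotation release are not given in the sources used. The tables list 38924 genes for GMP and 45513 for LSK, with 38086 gene IDs in both, and whether their annotations differed is not stated. Reads with multiple alignments (26.3% to 28.99% in GMP) and ambiguous reads (1.14% to 1.32%) were not counted on genes. In the deposited signal each library is its raw counts over a single size factor (to 0.1% for nearly all genes), and these factors were recovered as an alternative scaling.

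The raw counts were tested with edgeR 4.0.16 in R 4.3.3: filterByExpr with a minimum count of 10, TMM, the two-sided quasi-likelihood test, Benjamini-Hochberg adjustment over all genes tested, with calls at 0.05. Each population was fitted apart. Differences and means of effects and LSK against GMP came from 1 fit of all 10 libraries over the shared gene IDs. CPM use the TMM sizes of the population, and RPKM the union of exons in GENCODE vM21, which also gave symbols and coordinates (GRCm38, 1-based). SE was derived from each log2 fold change and its F statistic, and 95% intervals use the fit's degrees of freedom. Alternatives were DESeq2 1.42.0, limma-voom (limma 3.58.1), other size factors, no filter, each library left out, sex or reads outside genes as a term, and transcript lengths. Fits on libraries without Y-linked counts, on KO-352, CTRL-346 and CTRL-350, and on library totals were chosen after seeing the data. The edgeR steps were tested on simulated counts.

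The members and lists were chosen with earlier results of these data known. All 10 members are named, with up to 4 genes per pathway list by p in each population and the 3 genes most alike for 4 members, of which those for Tet2 are not reported here. The labels do not state that libraries came from different animals, so p-values reflect the spread among libraries, which may be technical. Counts without molecular identifiers are not independent molecules, so depth gives counting error only.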

Additional observations from a re-analysis of the deposited data

How the results depend on the processing

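No paired analysis was possible because no replicate number occurs in more than 1 group. Over all alternatives, single gene values kept direction and side of the threshold in 785 of 847 cases; 44 changed sign, and with the sign kept 10 gained and 8 lost a call. DESeq2 called 703 genes in GMP, against 6 by edgeR and 0 by limma-voom, with 0 members in each. In GMP the members called ranged from 0 to 1 on leaving out a library, 1 (Dnmt3a, among 172 genes) without KO-352, and 1 (Dnmt3a, −2.66, edgeR adjusted p = 0.0371) with only KO-352, CTRL-346 and CTRL-350, where the lone KO library is assumed to vary like the 2 CTRL libraries. In LSK they were 1 on leaving out any library and 0 in a single fit of all 10 libraries, where Dnmt3a stood at −1.44. For the mean effect they were 0 to 1 on leaving out a library (Dnmt3a, among 22 genes without KO-179 and 473 without KO-352). They were also 1 with no filter (among 52 genes) and with DESeq2 (among 275 genes). For LSK against GMP they were 6 to 8 in CTRL (Dnmt1 and Uhrf1 lost without CTRL-346 or CTRL-1330), 5 with library totals, and 6 to 7 in KO (Tdg gained without KO-1327). In KO they were also 7 with no filter, DESeq2 and limma-voom (each with Tdg) and with library totals (with Dnmt1).

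By the longest transcript, Dnmt3b made up 83.2% (LSK KO), 62.5% (LSK CTRL) and 50.9% (GMP CTRL) of its pair; Tet2 made up 32.4% (LSK KO), 32.8% (LSK CTRL), 57.7% (GMP KO) and 53.4% (GMP CTRL) of the TET genes, and Tet1 23.1% (LSK KO), 22.9% (LSK CTRL), 8.93% (GMP KO) and 11.6% (GMP CTRL).

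Values that changed sign came from effects that did not pass, and of those given here Dnmt1 in LSK against GMP in KO passed with its sign changed (library totals). With KO-352 as the sole KO library, GMP effects were 0.00094 (Uhrf1), 0.20 (Hells) and −0.067 (Tet2), and with reads outside genes as a term Hells was 0.11. Differences of effects were 0.037, 0.046 and 0.18 for Dnmt3l (DESeq2 size factors, DESeq2, limma-voom), 0.0042 for Tet3 with DESeq2 size factors and with DESeq2, and −0.0041 for Dnmt3a with library totals. With library totals the mean effect of Tet2 was 0.025, and LSK against GMP in KO was 0.28 (Dnmt1) and 0.27 (Uhrf1). On leaving out a library, GMP effects of Hells ranged from −0.26 to 0.12 and the LSK effect of Tet1 from −0.22 to 0.0097. Differences of effects ranged from −0.28 to 0.42 (Dnmt3a), −0.16 to 0.075 (Dnmt3b), −0.80 to 1.78 (Dnmt3l), −0.040 to 0.35 (Hells) and −0.088 to 0.052 (Tet3). Mean effects ranged from −0.15 to 0.026 (Uhrf1), −0.076 to 0.12 (Hells) and −0.079 to 0.028 (Tet2). LSK against GMP ranged from −0.027 to 0.31 for Tdg in CTRL, and in KO from −0.082 to 0.62 (Dnmt3a), −0.17 to 0.0076 (Dnmt1) and −0.23 to 0.082 (Uhrf1). The cause of these shifts was not tested. Dnmt3l had 1 to 8 reads per LSK library, too few to test.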
